A study of Mus musculus with 3 samples.

Results

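The 9 genes described here encode matricellular proteins or are known to respond to YAP or TGF-beta, and all were found on arrays of CLDE cells, a dental epithelial cell line of the mouse from the cervical loop of the incisor. Their probes were selected on the gene name in the scanner files, and the genes are Tnc, Thbs1, Fn1, Postn, Spp1, Ccn2 (named Ctgf on the array), Ccn1 (named Cyr61), Sparc and Ankrd1. They make up 9 of 24811 named genes and 19 of 56598 probes. As a set they were chosen by earlier siKrt15 differences on these same arrays, so their values are a description and not a test.

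Transcripts were compared on 3 Agilent 1-colour mouse arrays. The siKrt15 array holds RNA from cells given an siRNA duplex against Krt15, the siNeg array RNA from cells given ON-TARGETplus non-targeting siRNAs, and the mock array RNA from mock-transfected cells. All cells were of 1 line, grown in keratinocyte serum-free medium, and were harvested 72 h after transfection. The protocol names Lipofectamine RNAiMax as the reagent for both siRNAs and gives no further detail of the mock. Each group has 1 array, so no difference has a replicate check and no p-value was computed. Titles and descriptions contradict each other for the siKrt15 and siNeg arrays, and groups were taken from the titles.

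Matricellular proteins are secreted into the extracellular matrix, where they bind matrix components and cell-surface receptors and change how cells attach and signal rather than serving mainly as scaffold. Tenascin C, thrombospondin, periostin, osteopontin, SPARC and the CCN proteins belong to this class, and fibronectin is the structural glycoprotein to which many of them bind. TGF-beta acts through receptor kinases and SMAD proteins, and YAP and TAZ, which the Hippo kinases hold back, act through TEAD factors. Ccn1, Ccn2 and Ankrd1 are widely used readouts of YAP and TEAD. In the tooth, tenascin C, periostin and osteopontin are best known from the mesenchyme, the periodontal ligament and mineralized tissue.

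The promoters of Ankrd1 and Ccn1 are shown because they hold the core of the TEAD binding motif, GGAATG or its reverse complement CATTCC, which is in capitals. Those of Tnc and Spp1 are shown for contrast, since neither strand holds that motif. Each run gives the 250 bases before an annotated transcript start, 5′ to 3′ on the gene's strand, from RefSeq on GRCm38.p6.
Ankrd1, chr19:36119845-36120094, minus strand: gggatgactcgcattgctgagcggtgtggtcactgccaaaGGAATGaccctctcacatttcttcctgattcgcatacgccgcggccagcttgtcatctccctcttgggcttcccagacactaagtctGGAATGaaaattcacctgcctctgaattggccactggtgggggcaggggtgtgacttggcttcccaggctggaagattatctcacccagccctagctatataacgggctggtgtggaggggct
Ccn1, chr3:145649986-145650235, minus strand: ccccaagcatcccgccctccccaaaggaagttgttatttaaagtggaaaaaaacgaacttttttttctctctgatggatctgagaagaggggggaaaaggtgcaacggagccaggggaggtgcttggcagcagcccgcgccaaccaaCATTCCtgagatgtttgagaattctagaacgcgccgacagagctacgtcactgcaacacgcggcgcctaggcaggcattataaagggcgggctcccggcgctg
Tnc, chr4:64047016-64047265, minus strand: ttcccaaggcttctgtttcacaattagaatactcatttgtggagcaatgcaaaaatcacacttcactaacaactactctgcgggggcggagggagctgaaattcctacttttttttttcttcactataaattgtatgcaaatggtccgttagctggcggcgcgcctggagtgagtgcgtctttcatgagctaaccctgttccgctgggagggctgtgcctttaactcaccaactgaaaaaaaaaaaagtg
Spp1, chr5:104434861-104435110, plus strand: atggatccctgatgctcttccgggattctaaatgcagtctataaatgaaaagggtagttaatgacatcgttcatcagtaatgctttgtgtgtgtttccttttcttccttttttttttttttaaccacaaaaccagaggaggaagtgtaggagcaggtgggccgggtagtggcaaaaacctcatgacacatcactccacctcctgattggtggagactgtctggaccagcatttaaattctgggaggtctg

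The promoter table matched 6 of the 9 genes, with 9 promoters among them. The TEAD core occurred 2 times in the Ankrd1 promoter, 210 and 123 bases before the start, and 1 time in that of Ccn1, 103 bases before it. It occurred 0 times in the promoters of Tnc, Spp1, Postn and Sparc. Of all 32851 promoters of that length, 12.6% hold it. The SMAD-binding element core GTCTG, or CAGAC on the other strand, was in at least 1 promoter of Ankrd1, Spp1, Sparc, Tnc and Postn and in 42.2% of all promoters. The shares of all are per promoter, whereas a gene is named if any of its promoters holds the motif. Tnc, Spp1 and Postn have more than 1 promoter, so these genes cannot be set directly against the shares. The AP-1 motif TGANTCA was in 0 of the 9 promoters and in 6.75% of all. The TATA motif TATAAA, searched on both strands, was in windows of Ccn1, Tnc, Spp1 and Postn and in 12.4% of all. It lay 25 bases before the start in Ccn1 and 26 in Postn, but 211 in Spp1, and 126 and 205 in the overlapping Tnc windows. These matches describe letters in a window and are not binding sites, and Ccn2, Thbs1 and Fn1 were not searched. Among the 6 genes searched, Ankrd1 and Ccn1, with a TEAD core, and Sparc, without it, stayed under 2-fold below. Tnc, Spp1 and Postn, also without it, passed 2-fold. Any link between these letters and the differences was not tested.

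The array quality facts that touch these values are few. Between 67.3% and 69.2% of the 59305 non-control spots on each array were well above background, and 0 spots were saturated. The 75th percentile of the processed signal, by which each array was scaled, was 216.0 in siKrt15, against 180.4 in siNeg and 191.1 in mock. Krt15, the targeted keratin, had a processed signal of 267 in siKrt15, against 1647 in siNeg and 2638 in mock, so the array titled siKrt15 is the one with the low Krt15 signal. Each difference below has as its error an SD derived from the scanner software's error model, whose median was 0.21 for a gene on the log2 scale. It covers 1 hybridisation per group and leaves out the spread between cultures. For a gene with several probes it is the root mean square of the probe SDs, not reduced for the averaging of probes.

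In siKrt15, 6 of the 9 genes rose at least 2-fold against siNeg, the size used throughout as the threshold: Spp1, Postn, Tnc, Thbs1, Fn1 and Ccn2. Among all 17120 genes with a value, 1.7% passed that size upwards and 2.0% downwards. Against mock the same 6 genes rose at least 2-fold, where 2.18% of 17129 genes passed upwards and 1.24% downwards. Against both controls together 1.49% of 16915 genes passed upwards and 0.662% downwards. Sparc, Ccn1 and Ankrd1 stayed under 2-fold against both, and 0 of the 9 was at least 2-fold lower. The median log2 difference of the 9 genes was 1.47 against siNeg and 1.84 against mock, beside −0.08 and −0.06 over all genes measured. These 2 comparisons share the siKrt15 array, and the genes were chosen with these differences known, so nothing is read from the counts.

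**Figure D1:**
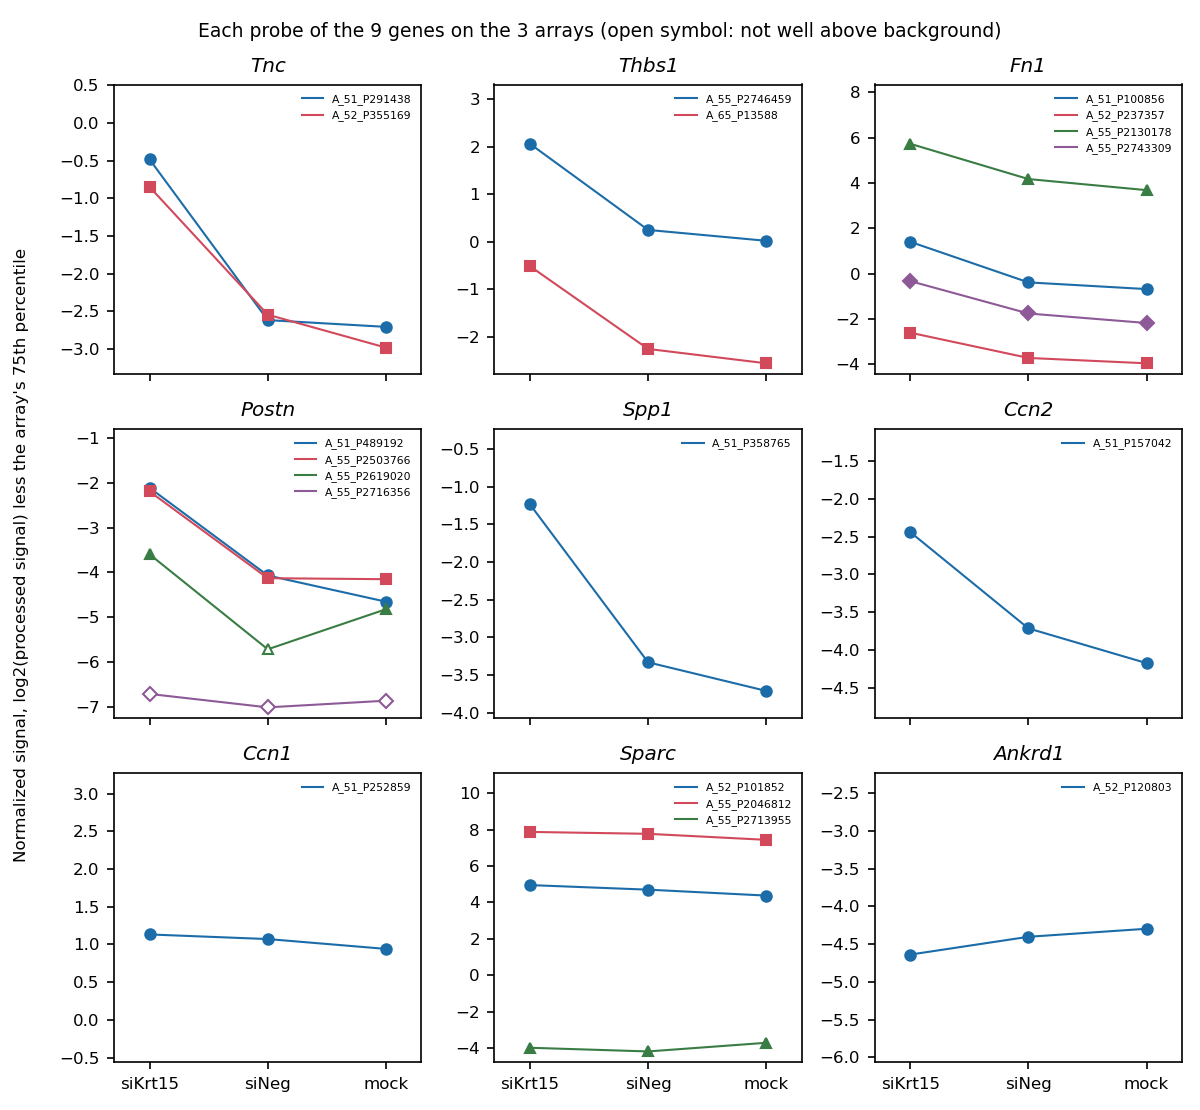
Normalized log2 signal (processed signal less the array's 75th percentile, vertical axis) of each of the 19 probes of the 9 genes on the siKrt15, siNeg and mock arrays; each line is 1 probe and open symbols are not well above background. The Tnc, Thbs1, Fn1, Spp1 and Ccn2 probes stand highest in siKrt15, while the Ccn1 and Ankrd1 lines span less than 0.35.

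Tenascin C (Tnc) is a large hexameric glycoprotein that modulates adhesion to fibronectin. Probe A_51_P291438 (chr4:63620819-63620864, mm9, minus strand) had a processed signal of 154 in siKrt15, against 29.4 in siNeg and 29.3 in mock. Probe A_52_P355169 (chr4:63674248-63675011, mm9, minus strand) had 120 in siKrt15, against 31.0 in siNeg and 24.2 in mock. Both probes were highest in siKrt15, with the controls close together. After scaling Tnc differed by 1.91 ± 0.21 (3.76-fold) from siNeg and by 2.17 ± 0.21 (4.51-fold) from mock. The probes gave 2.13 and 1.69 against siNeg and 2.22 and 2.13 against mock.

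Thrombospondin 1 (Thbs1) is a trimeric matricellular protein known as an activator of latent TGF-beta and an inhibitor of angiogenesis. Probe A_55_P2746459 (chr2:117952585-117952644, mm9, plus strand) had a processed signal of 899 in siKrt15, against 214 in siNeg and 194 in mock. Probe A_65_P13588 (chr2:117950962-117951021, mm9, plus strand) had 152 in siKrt15, against 38.0 in siNeg and 32.6 in mock. The probes sit on different parts of the transcript and gave nearly the same differences, 1.81 and 1.74 against siNeg and 2.04 each against mock. The gene's difference was 1.77 ± 0.21 (3.42-fold) against siNeg and 2.04 ± 0.21 (4.11-fold) against mock.

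Fibronectin (Fn1) forms the fibrils to which integrins and several matricellular proteins attach. Its 4 probes lie on chromosome 1 in mm9, minus strand, and 2 of them are shown because each spans more genome than its own 60 bases. They therefore cross at least 1 gap in the genomic alignment, unlike the other 2.
Fn1 probe A_51_P100856, chr1:71637422-71639659: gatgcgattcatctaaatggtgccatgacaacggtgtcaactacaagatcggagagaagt
Fn1 probe A_55_P2743309, chr1:71694694-71695800: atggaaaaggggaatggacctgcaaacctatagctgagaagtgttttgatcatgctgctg
From first to last mapped base they span 2238 and 1107 bases.

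The Fn1 probe A_51_P100856 had a processed signal of 572 in siKrt15, against 138 in siNeg and 119 in mock. Probe A_55_P2743309 had 172 in siKrt15, against 53.1 in siNeg and 42.1 in mock. The brightest Fn1 probe, A_55_P2130178 (chr1:71632116-71632175), had 11500 in siKrt15, against 3259 in siNeg and 2459 in mock. All 3 were highest in siKrt15 and lowest in mock. Probe A_52_P237357 (chr1:71650690-71650749), which is annotated to a transcript of its own, showed the same order at a dim level, with 35.4 in siKrt15, against 13.6 in siNeg and 12.3 in mock. The 4 probes ranged from 1.12 to 1.79 against siNeg and from 1.35 to 2.09 against mock, the dim probe being the lowest in each. The gene's difference was 1.47 ± 0.21 (2.78-fold) against siNeg and 1.84 ± 0.22 (3.57-fold) against mock.

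Periostin (Postn) is a fasciclin-domain protein of collagen-rich and mechanically loaded tissues and a known TGF-beta target. Its probes lie on chromosome 3 in mm9, plus strand, and were dim. Probe A_51_P489192 (chr3:54194483-54194542) had a processed signal of 49.9 in siKrt15, against 10.8 in siNeg and 7.60 in mock. Probe A_55_P2503766 (chr3:54194385-54194444) had 47.2 in siKrt15, against 10.3 in siNeg and 10.8 in mock. Both were several times brighter in siKrt15 than in either control, and in processed signal the order of the controls differed between them.

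A Postn probe nearby, A_55_P2619020 (chr3:54194196-54194255), had 17.9 in siKrt15, against 3.44 in siNeg and 6.77 in mock. It was not well above background in siNeg, so it was at least 3.32-fold higher in siKrt15 than in siNeg, and at least 1.42-fold lower in siNeg than in mock. Such a bound sets the brighter array's value against the dim probe's own value or the lowest signal well above background on that array, whichever is higher. Probe A_55_P2716356 (chr3:54188575-54188634), annotated to another transcript, was not well above background on any array. Postn differed by 1.94 ± 0.25 (3.85-fold) against siNeg over 2 measured probes. Against mock it differed by 1.91 ± 0.28 (3.75-fold) over 3 measured probes, which ranged from 1.22 to 2.54.

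Osteopontin (Spp1) is a phosphorylated integrin and CD44 ligand of bone, dentin and cementum that cells also secrete in repair. Its 1 probe, A_51_P358765 (chr5:104869788-104869847, mm9, plus strand), had a processed signal of 91.8 in siKrt15, against 17.9 in siNeg and 14.6 in mock. The siKrt15 array stood apart and the controls were close to each other. Spp1 differed by 2.09 ± 0.22 (4.27-fold) from siNeg and by 2.47 ± 0.23 (5.55-fold) from mock. It ranked 21 from the top of 17120 genes against siNeg and 7 of 17129 against mock, the highest ranks of the 9 genes in both.

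Ccn2, known as connective tissue growth factor, and Ccn1 are related secreted proteins that bind integrins and heparan sulfate, and both are readouts of YAP and of TGF-beta or serum. The 1 Ccn2 probe, A_51_P157042 (chr10:24318281-24318340, mm9, plus strand), had a processed signal of 39.8 in siKrt15, against 13.7 in siNeg and 10.6 in mock. Its difference was 1.28 ± 0.24 (2.42-fold) against siNeg and 1.74 ± 0.25 (3.33-fold) against mock. Of the 6 genes past 2-fold it was the closest to the threshold in both comparisons.

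The 1 Ccn1 probe, A_51_P252859 (chr3:145310187-145310246, mm9, minus strand), had 474 in siKrt15, against 379 in siNeg and 367 in mock. The 75th percentile used for scaling was itself highest on the siKrt15 array. The scaled difference of Ccn1 was 0.06 ± 0.20 against siNeg and 0.19 ± 0.20 against mock, each within its error.

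Ankrd1, a nuclear and sarcomeric ankyrin-repeat protein, is the other common YAP readout among the 9 genes. Its 1 probe, A_52_P120803 (chr19:36186809-36186868, mm9, minus strand), was dim, with a processed signal of 8.67 in siKrt15, against 8.52 in siNeg and 9.72 in mock. Its difference was −0.24 ± 0.30 against siNeg and −0.34 ± 0.29 against mock. The sign against siNeg turned with the scaling, to 0.10 after quantile normalization. Its promoter holds the TEAD core 2 times, as printed above, and that of Ccn1 1 time.

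SPARC, also called osteonectin, is a calcium- and collagen-binding protein of basement membranes and mineralizing tissue. Its 1 probe that crosses an alignment gap, on chromosome 11 in mm9, minus strand, is printed as the counterpart of the Fn1 probes.
Sparc probe A_52_P101852, chr11:55209449-55212106: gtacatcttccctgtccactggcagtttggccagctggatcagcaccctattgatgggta
Sparc probe A_52_P101852 had a processed signal of 6683 in siKrt15, against 4687 in siNeg and 3961 in mock. Probe A_55_P2046812 (chr11:55208939-55208998) had 50660 in siKrt15, against 39326 in siNeg and 33134 in mock. The dim probe A_55_P2713955 (chr11:55222956-55223015), annotated to another transcript, had 13.6 in siKrt15, against 9.87 in siNeg and 14.5 in mock. The 2 bright probes were in the order siKrt15, siNeg, mock, and the dim probe was highest in mock. After scaling Sparc differed by 0.19 ± 0.22 against siNeg, within an error that is not reduced for its 3 probes. Against mock it differed by 0.25 ± 0.22, where the bright probes gave 0.58 and 0.44 and the dim probe −0.27.

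**Figure D2:**
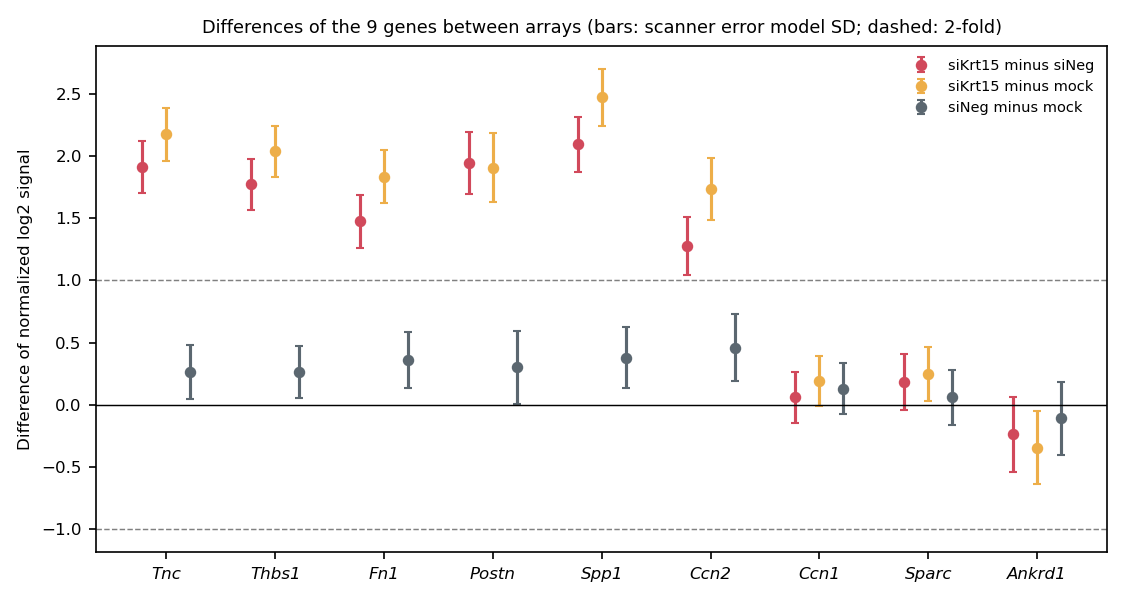
Log2 difference of each of the 9 genes for siKrt15 minus siNeg, siKrt15 minus mock and siNeg minus mock; points are gene values, bars the error-model SD, and dashed lines 2-fold. Tnc, Thbs1, Fn1, Postn, Spp1 and Ccn2 lie above 1 in both siKrt15 comparisons and between 0.26 and 0.46 in siNeg minus mock.

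The siNeg and mock arrays differed far less in these genes. Of the 9 genes 0 was at least 2-fold higher or lower in siNeg, where 0.356% of 17415 genes passed upwards and 0.0459% downwards. The median was 0.26, beside 0.02 over all genes, and 8 of the 9 were above 0, beside 9668 of 17415 genes. Ccn2 was at 0.46 ± 0.27, Spp1 at 0.38 ± 0.24, Fn1 at 0.36 ± 0.22 and Postn at 0.30 ± 0.29. Tnc and Thbs1 were at 0.26 ± 0.22 and 0.26 ± 0.21, and Ankrd1 was at −0.11 ± 0.29. Postn turned to −0.11 when dim probes were kept, and Ankrd1 to 0.03 under normexp. This comparison shares 1 array with each of the others, so the 3 sets of values are not independent.

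**Figure D3:**
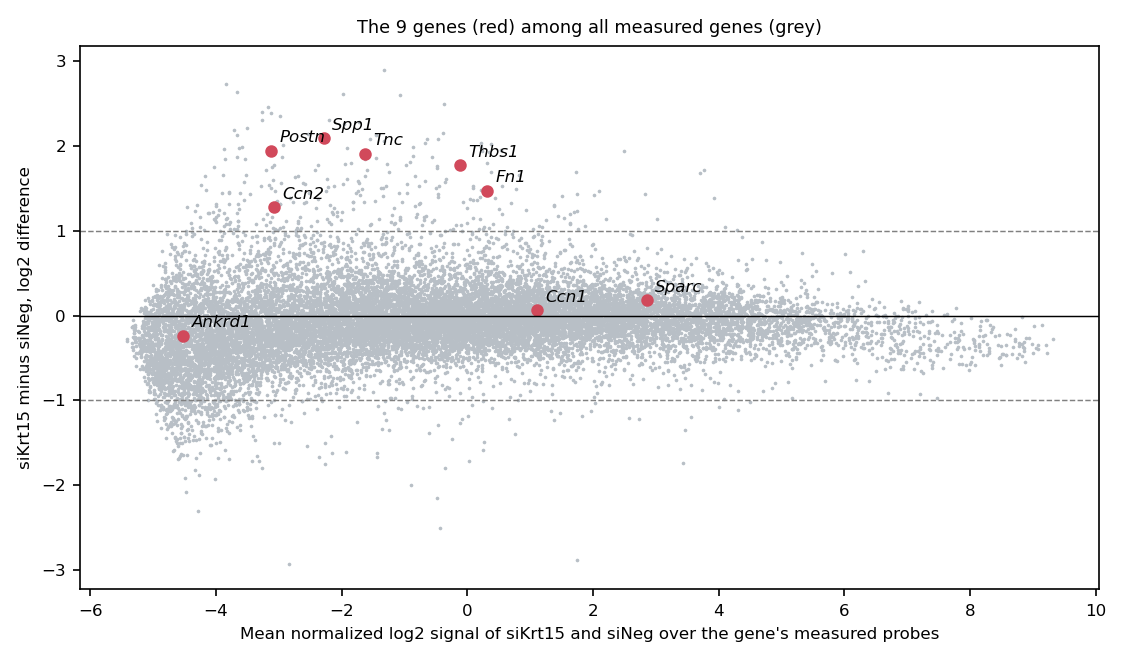
Log2 difference siKrt15 minus siNeg (vertical axis) against mean normalized log2 signal of the 2 arrays (horizontal axis) for all 17120 measured genes in grey and the 9 genes in red; dashed lines mark 2-fold. The 6 genes past 2-fold lie from dim (Postn, Ccn2) to mid-range signal (Thbs1, Fn1), and Sparc, the brightest of the red points, lies near 0.

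The list of other matricellular genes held 20. Against siNeg 9 of them were measured, with 1 at least 2-fold higher (beside 1.7% of all genes), 0 lower and a median of 0.52, which turned to −0.08 under the normexp background correction. The gene past the threshold was Ccn4, a Wnt-responsive CCN protein, at 1.02 ± 0.21 (1.03 against mock), and at 0.69 and 0.77 under normexp. The basement membrane protein Fbln1 was at 0.82 (1.29 against mock), the cartilage thrombospondin Comp at 0.66 (1.06), and Tgfbi, a fasciclin-domain relative of periostin, at 0.55 (0.56). Comp was dim and was at −0.08 against siNeg and 0.05 against mock under normexp. Against mock 3 of 9 were at least 2-fold higher (beside 2.18% of all genes), namely Ccn4, Fbln1 and Comp, with a median of 0.35, which turned to −0.17 over all 20 when dim probes were kept. Thbs2, Thbs4, Tnr, Tnn, Ccn3, Ccn5, Ccn6, Sparcl1, Ibsp, Dmp1 and Fbln5 were not measured on either pair.

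Other genes known as YAP and TEAD targets numbered 19, of which 17 were measured against siNeg, with a median of 0.23. Of these, 0 were at least 2-fold higher (beside 1.7% of all genes) and 0 lower (2.0%). At such shares a count of 0 in a list this small is not read as a result. The angiomotin family member Amotl2 was at 0.64 and Igfbp3, an IGF-binding protein, at 0.57, while the coagulation receptor F3 was at −0.80. Tgfb2, a TGF-beta ligand also held as a YAP target, was at 0.86 against siNeg and 2.13 against mock. Against mock it was the 1 of 18 at least 2-fold higher, beside 2.18% of all genes. Tgfb2 was dim, was at 0.11 against siNeg and 0.36 against mock under normexp, and siNeg was itself higher than mock in it by 1.27. The median against mock was 0.26.

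The genes of the Hippo pathway itself lay around 0. Of 22, 20 were measured, with 0 past 2-fold in either direction, beside 1.7% of all genes upwards and 2.0% downwards against siNeg. Against mock those shares were 2.18% and 1.24%. The Hippo medians were 0.02 against siNeg and −0.05 against mock, the sign of which turned with the scaling. Tead2 was at 0.71 and Tead4 at −0.82, both TEAD factors that bind the core printed above. Wwtr1, which encodes TAZ, was at −0.51 (−0.50 against mock) and the Hippo kinase Stk4 at −0.40. Against mock Stk4 was at −0.14, within its error of 0.20, and siNeg was itself higher than mock in it by 0.26. Yap1, named after its value was seen, was at −0.07 against siNeg and −0.08 against mock. Each Yap1 value averages 2 probes. The brightest processed signal of Yap1 was 7636 in siKrt15, against 5487 in siNeg and 6245 in mock. Scaled to each array's 75th percentile, it stayed highest in siKrt15. The 2 probes therefore differ in sign against each control, and the Yap1 values near 0 are means over opposite signs.

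TGF-beta ligands, receptors and SMAD genes numbered 24, all measured, with a median of 0.14 against siNeg. Of these, 0 were at least 2-fold higher (beside 1.7% of all genes) and 0 lower (2.0%). After Tgfb2 the members of largest size were Smurf2, a ubiquitin ligase that limits the pathway, at −0.66, the activin subunit Inhbb at 0.61 and the type II receptor Tgfbr2 at 0.54. Against mock the median was 0.25, and Tgfb2 was the 1 gene at least 2-fold higher (beside 2.18% of all genes). Of 20 other TGF-beta target genes, 19 were measured against siNeg, with 0 past 2-fold (beside the same shares) and a median of 0.10. Collagen gene Col1a1 was at 0.85, the protease inhibitor Timp1 at 0.82 and the feedback gene Pmepa1 at 0.67. Under median scaling Col1a1 and Timp1 passed 2-fold, at 1.07 and 1.04, but Col1a1 was at 0.13 against siNeg when dim probes were kept and at 0.29 against mock under normexp. Against mock the median was 0.37, and 2 were at least 2-fold higher (beside 2.18% of all genes). They were Timp1 at 1.08 and Pmepa1 at 1.04 (0.99 when the percentile was taken over all non-control spots).

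Targets of SRF and MRTF, which respond to actin and share Ccn1 and Ankrd1 as readouts, lay mostly below 0. All 16 were measured, with 0 past 2-fold (beside 1.7% of all genes upwards and 2.0% downwards) and a median of −0.45 against siNeg. Of the 16, 14 were below 0, beside 10383 of all 17120 genes, whose median was −0.08. Above 0 against siNeg were 6737 of all 17120 genes, and the lists before this one held larger shares above 0. They were 18 of 24 TGF-beta ligands, receptors and SMADs, 12 of 17 YAP and TEAD targets and 12 of 19 TGF-beta targets. Of the other matricellular genes 7 of 9 were above 0 (4 of 9 under normexp), and of the Hippo genes 11 of 20. The median of the 16 ranged from −0.49 to −0.23 over the settings tried and was below 0 in all 6 scalings. Srf itself was at −0.74, the actin-binding calponin Cnn1 at −0.72, the focal adhesion genes Zyx at −0.70 and Vcl at −0.64. Against mock the median was −0.33, with 14 of 16 below 0, beside 9945 of all 17129 genes. Above 0 against mock were 18 of 24 TGF-beta ligands, receptors and SMADs and 14 of 19 TGF-beta targets, beside 7184 of all 17129 genes. For YAP and TEAD targets it was 12 of 18, for other matricellular genes 5 of 9 and for Hippo genes 9 of 20. Cnn1 was dim, with a processed signal of 7.05 in siKrt15, against 9.70 in siNeg. It had 1 measured probe of 2 and an error of 0.32 against siNeg. Cnn1 was at −0.24 against siNeg under normexp, and against mock its −0.19 turned to 0.11 after quantile normalization.

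Receptors for these matrix proteins, a list of 19 integrin, syndecan and related genes with 13 measured, had 0 past 2-fold in either comparison. Over all genes 1.7% passed upwards and 2.0% downwards against siNeg, and 2.18% and 1.24% against mock. The receptor medians were 0.04 against siNeg and −0.08 against mock, and both signs turned with the scaling. The integrin chains Itgb3 and Itgb6 were at −0.91 and −0.49 against siNeg and at −0.20 and −0.19 against mock, where Itgb3 turned to 0.13 after quantile normalization. Itgb3 was dim, with a processed signal of 5.87 in siKrt15, against 9.21 in siNeg, and an error of 0.34 against siNeg. The fibronectin receptor chain Itga5 was at 0.28 and Itga3 at 0.21 against siNeg.

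**Figure D4:**
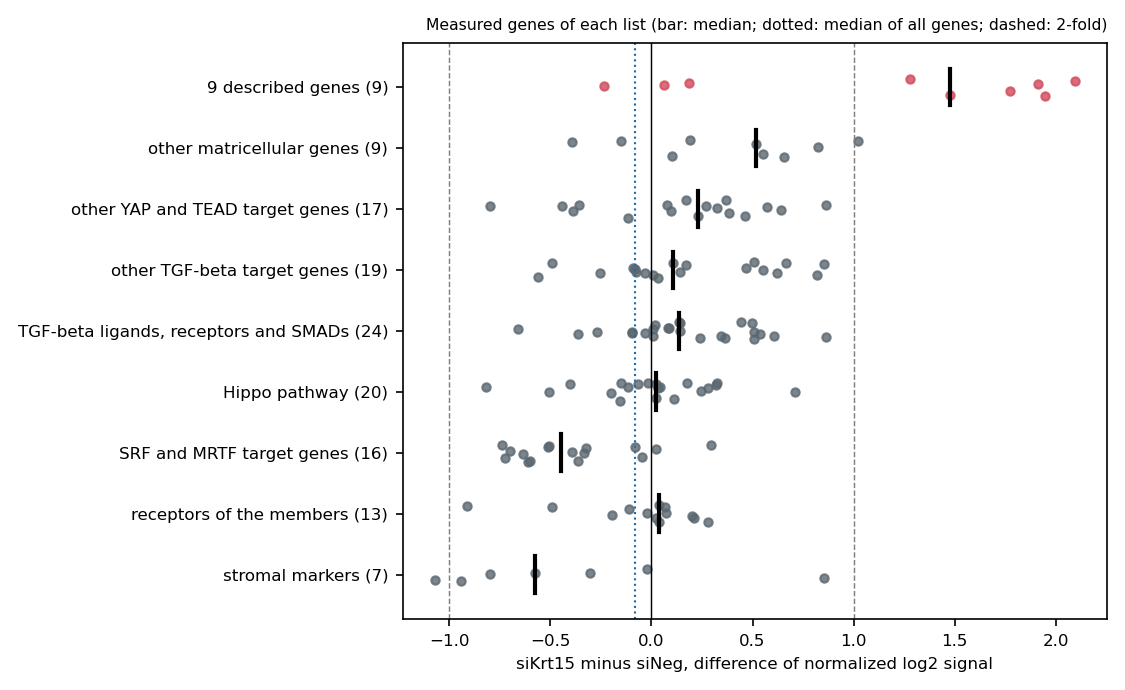
Log2 difference siKrt15 minus siNeg of each measured gene (points) in the 9 described genes and 8 other lists, with the list median (black bar), the median of all genes (dotted) and 2-fold (dashed); the number measured is in brackets. The 9 genes split into 6 above 1 and 3 near 0. Of the 16 SRF and MRTF targets 14 lie below 0, as do 10383 of all 17120 genes. Of the 24 TGF-beta ligands, receptors and SMADs 18 lie above 0, as do 6737 of all 17120 genes.

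Markers of other cell types are given beside the 9 genes, and their part in the differences was not tested. Of 12 stromal markers 7 were measured against siNeg, with 1 at least 2-fold lower (beside 2.0% of all genes) and 0 higher (1.7%). Their median was −0.58 (−0.38 against mock). Decorin (Dcn) was at −1.07 (−0.73 under normexp), Pdgfra at −0.94, Col3a1 at −0.80 and Col1a1 at 0.85. Pdgfra and Col3a1 were dim, with 1 measured probe of 3 each and errors of 0.26 and 0.41. Col3a1 had a processed signal of 4.84 in siKrt15, against 7.02 in siNeg. The summed signal of the list, as multiples of each array's 75th percentile over the brightest probe of each gene, was 1.62 in siKrt15, against 2.15 in siNeg and 2.16 in mock. Lum, Pdgfrb and Fap were not well above background on any array.

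Of 5 endothelial markers 2 were measured against siNeg, with a median of −0.25, and Cdh5, Kdr and Tek were not well above background on any array. Their summed signal was 0.334 in siKrt15, against 0.453 in siNeg and 0.521 in mock. Of 7 blood and immune markers 5 were measured, with a median of −0.28 and a summed signal of 25.5 in siKrt15, against 31.4 in siNeg and 32.0 in mock. Of 11 dental epithelial markers 8 were measured, with a median of −0.13 whose sign turned with the scaling. Krt14 was at −0.16, Trp63 at −0.32, Epcam at 0.53 and Cdh1 at −0.24, and the epithelial sum was 1028 in siKrt15, against 1125 in siNeg and 1063 in mock. Most of that sum came from Krt5 and Krt14. Their processed signals in siKrt15 were 117327 and 85532, against 10432 for Dsp, the next brightest of the list. The enamel matrix genes Ambn and Enam were not well above background on any array. In bulk RNA, fewer cells of a type and less RNA per cell cannot be told apart.

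Genes with the profile most like each of the 9 were sought over the 3 arrays, by the Euclidean distance between log2 values less their own mean, among at least 8073 genes at or above the median signal. With 3 arrays many genes lie close by this measure. The nearest to Tnc were Cdca5 (distance 0.044) and Foxm1 (0.053), to Thbs1 Trip13 (0.047) and Cenpe (0.086), and to Fn1 Camkk1 (0.037) and Pole (0.055). Postn lay nearest to Mki67 and Cdca5 (0.083 each), over the 2 Postn probes measured on all arrays. Spp1 had no close neighbour, with Mki67 at 0.213 and Birc5 at 0.222, and Ccn2 lay nearest to Lef1 (0.104) and Spc24 (0.106). Ccn1 was nearest to Zfp599 and Rnf19b, Sparc to Wasf1 and Ppm1f, and Ankrd1 to Stom and Akap9, all within 0.0034. Among these neighbours Mki67 was at 1.99 against siNeg and 2.18 against mock, and Foxm1 at 1.93 and 2.12.

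**Figure D5:**
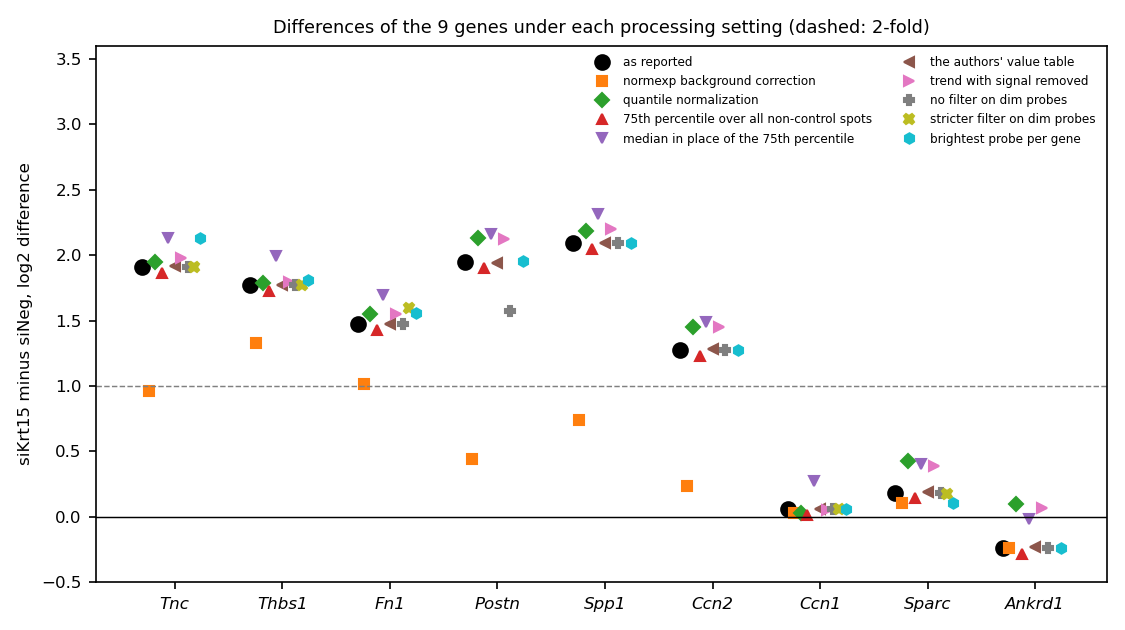
Log2 difference siKrt15 minus siNeg of each of the 9 genes as reported (black) and under 9 other processing settings (coloured symbols); the dashed line marks 2-fold. The normexp background correction gives the lowest value for each of the 6 genes past 2-fold, from 0.24 for Ccn2 to 1.33 for Thbs1, and genes too dim for the stricter filter have no symbol for it.

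The size of the difference in the dim genes was smaller under the normexp setting, which changes the background method and adds an offset of 50 to every signal. With it 2 of the 9 genes stayed at least 2-fold higher against siNeg (Thbs1 at 1.33 and Fn1 at 1.02) and 3 against mock (Thbs1 at 1.48, Fn1 at 1.29 and Tnc at 1.11). Postn was then at 0.44, Spp1 at 0.74 and Ccn2 at 0.24 against siNeg. These 2 changes were not tried apart. All 6 stayed above 0 against both controls in every setting that measured them.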

How the data were processed

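Total RNA was amplified to cRNA carrying Cy3 and read on 1-colour Agilent arrays, per the labels' protocols. Image analysis used Agilent Feature Extraction 11.5.1.1, per the submitters' processing notes. The deposited scanner files give, per the file headers, a background-subtracted processed signal for each spot, a linear intensity in arbitrary units, and probe coordinates on mm9. The authors' value table was deposited as log2 values. It followed the log2 processed signal less a constant near each array's 75th percentile, with at least 92.4% of probes within 0.01, medians of −3.72 (siKrt15), −3.51 (siNeg) and −3.52 (mock) and no centring of genes. All 3 arrays came from 1 slide and 1 scan, so no batch term was possible.

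Control and outlier spots were left out, log2 processed signals were scaled to each array's 75th percentile, and spots of a probe were averaged. Probes were named through RefSeq (GRCm38.p6, for names only), 32984 by accession, 10228 by symbol and 519 by synonym, while 12867 kept the files' name and did not enter gene counts. A probe counted as measured where both arrays of a comparison had it well above background and unsaturated. Gene values average these probes and were counted from 2-fold upwards in size. Named genes were the 9 genes with all their probes, Krt15, up to 4 measured genes per other list with the largest difference against siNeg, and the 2 nearest genes of each; a few genes this rule picks from the lists are left unreported. The members and lists were chosen with earlier results of these data known. The normexp alternative used limma 3.58.1 in R 4.3.3. The rest, quantile normalization included, used pandas 2.3.3 and numpy 2.4.6 in Python 3.11.15. The procedure was tested on simulated data. Exon and UTR positions of the probes were not used here.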

Additional observations from a re-analysis of the deposited data

How the results depend on the processing

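With 1 array per group, no left-out array could be tried. No paired analysis was possible because each group has 1 array. The 6 of 9 genes past 2-fold in siKrt15 against siNeg became 2 under normexp and 3 under the stricter filter, which measured 5 of the 9. Against mock 6 became 3 under each of these. The median fell to 0.44 under normexp against siNeg and to 0.42 against mock; that setting changes the background method and adds an offset together, and the cause was not tested. The count was 6 in both comparisons under the other settings. In siNeg against mock it was 0 throughout, and that median ranged from 0.15 to 0.29. Over single genes 0 values past 2-fold changed sign; Ankrd1 against siNeg ranged from −0.28 to 0.10.

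Counts over all genes moved more. Against siNeg, 291 higher and 342 lower genes (46.0% of them higher) became 82 and 23 under normexp (78.1%), 384 and 145 after quantile normalization (72.6%), 493 and 145 with median scaling (77.3%) and 388 and 144 with the signal trend removed (72.9%). They were 477 and 2070 with no filter on dim probes (18.7%), 209 and 70 under the stricter filter (74.9%), and 821 and 1477 at 1.5-fold (35.7%). Against mock, 374 and 213 (63.7%) became 102 and 24 (81.0%), 477 and 103 (82.2%), 586 and 98 (85.7%), 489 and 109 (81.8%), 646 and 1549 (29.4%), 273 and 73 (78.9%), and 998 and 1317 (43.1%) in the same order. In siNeg against mock, 62 and 8 (88.6%) became 0 and 0 under normexp, 836 and 413 with no filter (66.9%), 4 and 0 under the stricter filter, and 422 and 149 at 1.5-fold (73.9%). The median of all genes against siNeg was −0.08 and became 0.14 with median scaling. The cause of these shifts was not tested.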
